A study of Mus musculus with 16 samples.

Results

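The angiopoietin and Tie receptor axis was followed through 6 genes in RNA sequencing of sorted mouse lung endothelial cells (ECs), which form the inner lining of vessels. The genes were taken by name from a deposited table of 43346 genes: the receptor genes Tek and Tie1, the ligand genes Angpt1 and Angpt2, the receptor phosphatase gene Ptprb, and Foxo1. Each of the 6 had enough reads to be tested. The 16 libraries formed 4 groups, all of the FVB strain: Young Sham (2 months old, n = 5), Young Bleo (2 months old, n = 4), Aged Sham (18 months old, n = 3) and Aged Bleo (18 months old, n = 4). Bleo mice had received bleomycin, a drug that injures the lung and leaves fibrosis, through the trachea, and sham mice its carrier. According to the study's methods, all mice of both sexes carried a Col1a1-GFP reporter, and the cells were sorted about a month after delivery as positive for the endothelial protein CD31 and without CD45 (a leukocyte protein), EpCAM (an epithelial protein) or GFP. Libraries held 20.9 to 71.0 M gene counts (M, mega-counts). The study's methods give RNA integrity ranges that reach lower in each sham group than in its Bleo group, and lowest in Aged Sham. The ranges of each sham group and its Bleo group overlap, and the part of RNA integrity in any difference was not tested. The labels name no animals, but the study took this RNA from the lungs that also served its chromatin assay, where samples were individual mice, so the libraries were treated as separate mice.

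The receptor TIE2, the product of Tek, sits on the EC surface. Angiopoietin-1, which is made mainly by pericytes, other mesenchymal cells and platelets, switches it on, and active TIE2 signals through PI3 kinase and AKT to keep vessels quiet and their junctions tight. Angiopoietin-2, which ECs store and release on activation, acts as a weak agonist or as an antagonist depending on context. TIE1 binds no angiopoietin with high affinity but pairs with TIE2 and tunes it, and the phosphatase VE-PTP, the product of Ptprb, removes phosphate from TIE2. FOXO1 is a transcription factor that AKT keeps out of the nucleus, and Angpt2 is among the genes it switches on.

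The study asks how the DNA-binding factor ERG, a member of the ETS family, works in aged lung ECs, so the bases just upstream of the start of Tek, called in the aged comparisons, and of Foxo1 are shown. RefSeq (build GRCm38.p6, which is mm10) gave an entry for 3 of the 6 genes, Tek, Tie1 and Foxo1. Tek lies on the plus strand of chromosome 4 (94739289 to 94874976, protein coding), and its upstream bases are chr4:94739039-94739288. Foxo1 lies on the plus strand of chromosome 3 (52268336 to 52353221, protein coding), and its upstream bases are chr3:52268087-52268335. Capitals mark the ETS core letters GGAA, or TTCC where the core is on the other strand.
Tek: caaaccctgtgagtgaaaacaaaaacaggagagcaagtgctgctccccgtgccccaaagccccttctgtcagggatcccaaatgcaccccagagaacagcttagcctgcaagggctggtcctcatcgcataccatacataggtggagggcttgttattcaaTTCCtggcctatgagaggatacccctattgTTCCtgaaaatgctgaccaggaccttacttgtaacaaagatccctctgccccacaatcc
Foxo1: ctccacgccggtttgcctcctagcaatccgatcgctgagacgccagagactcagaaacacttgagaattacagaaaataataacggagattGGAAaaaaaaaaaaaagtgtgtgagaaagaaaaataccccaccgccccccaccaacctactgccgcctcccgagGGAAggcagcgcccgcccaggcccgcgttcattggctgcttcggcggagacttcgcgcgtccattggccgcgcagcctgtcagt
The Tek stretch held 2 cores, both on the minus strand and 89 and 59 bases before the start. The Foxo1 stretch held 2 on the plus strand, 159 and 85 bases before the RefSeq start. That start lies 1 base further into the gene than the start given above. In the 250 bases upstream of the RefSeq start of Tie1, most of which another annotation places inside the gene, there were 7. The core letters are common: 93.4% of 32851 upstream stretches of 250 bases held GGAA on at least 1 strand, with a median of 3. The longer letters AGGAAG, which contain the core and resemble the ERG motif, were found at Tie1 only among these 3 genes and in 29.5% of all stretches. The forkhead letters GTAAACA were found at none of the 3 and in 3.17% of all stretches. These are matches of letters on both strands and not measured binding sites.

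Levels are given as DESeq2 normalized counts, which compare libraries for a gene, or as FPKM (fragments per kilobase of gene length, scaled to the library total), which also allow a comparison between genes. In Young Sham the FPKM averaged 57.9 ± 10.8 for Tie1, 32.9 ± 6.48 for Tek, 15.2 ± 2.32 for Ptprb, 6.22 ± 0.591 for Foxo1, 4.44 ± 0.517 for Angpt2 and 1.71 ± 0.404 for Angpt1 (SD, n = 5). The Young Sham ranges of neighbours in this order overlapped only for Tie1 (41.2 to 68.8) and Tek (23.4 to 41.4), where the highest Tek value just passed the lowest Tie1 value. The receptors and their phosphatase were the abundant members of the axis in these cells, and the ligands the scarce ones.

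A gene was called when its Benjamini-Hochberg adjusted p from DESeq2, over all genes tested, was at most 0.05 and its log2 fold change was at least 0.5 in size. Tek and Ptprb were called higher and Angpt1 lower in Aged Bleo against Aged Sham, which is 3 of 6 members where 5.83% of all genes tested were called. In Aged Sham against Young Sham 1 of 6 was called, Tek, which was lower, against 3.35% of all genes. In Young Bleo against Young Sham 1 of 6 was called, Angpt1, which was lower, against 13.9% of all genes. DESeq2 called 0 of 6 in Aged Bleo against Young Sham (background 9.72%), 0 of 6 in Aged Bleo against Young Bleo (background 1.03%) and 0 of 6 in the contrast of the aged with the young response to bleomycin (background 0.381%). At an unadjusted p under 0.05 these last 3 counts were 2, 1 and 1, and edgeR and limma voom also called 0 in each. edgeR's quasi-likelihood test, which called fewer genes throughout, called Angpt1 in Young Bleo against Young Sham (background 9.78%) and Tek in Aged Bleo against Aged Sham (background 0.797%). It called no member in Aged Sham against Young Sham (background 0.862%), Aged Bleo against Young Sham (5.69%), Aged Bleo against Young Bleo (0.0437%) or the difference of responses (0.00546%). The comparisons with Young Sham share its 5 libraries, and those with Aged Sham its 3.

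**Figure D1:**
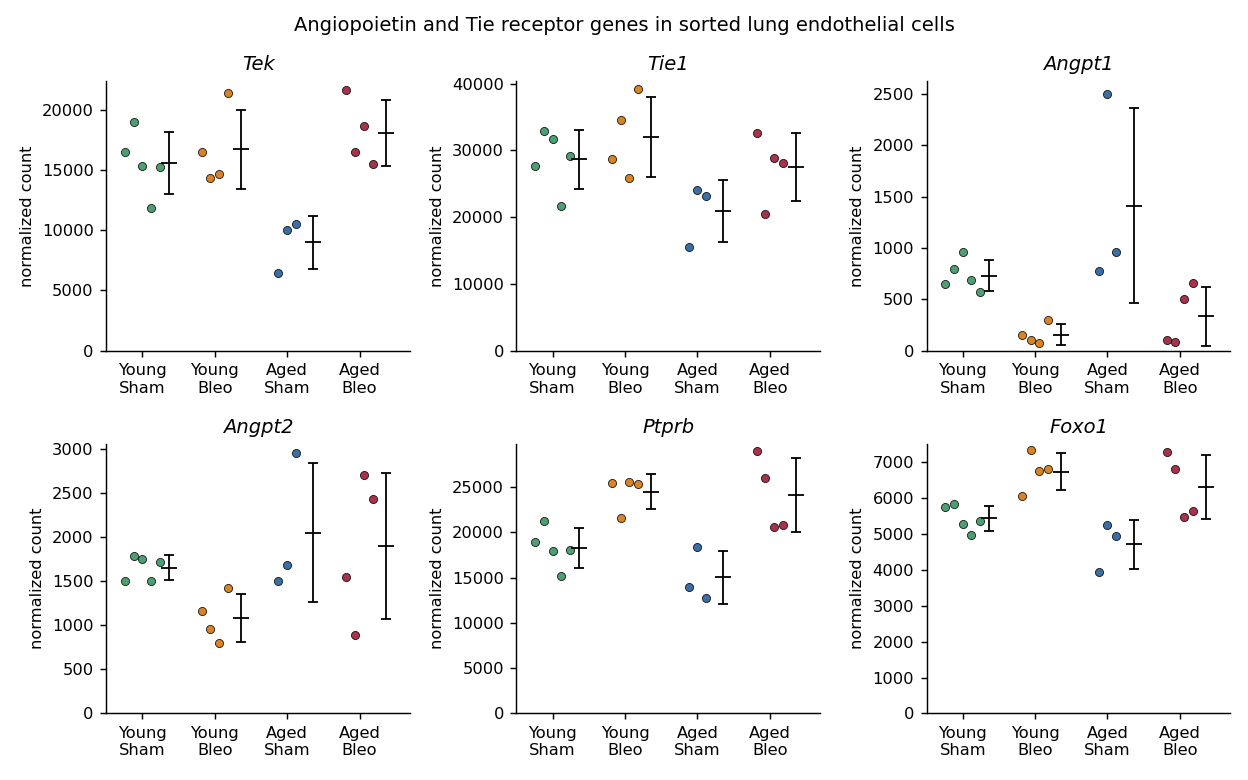
Normalized counts of the 6 genes, 1 point per library, with the group mean and SD as a bar to the right of the points. Every Aged Sham library lies below every other library for Tek, and Angpt1 is low in all 4 Young Bleo libraries and in 2 of the 4 Aged Bleo libraries.

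Among the receptors, Tek was lower in uninjured aged ECs and higher again in aged ECs after bleomycin. Its normalized counts were 16499, 18976, 15331, 11821 and 15292 in Young Sham, and 6458, 10034 and 10496 in Aged Sham. All 3 Aged Sham libraries thus lay below all 5 Young Sham libraries, as happened in either direction for 8.73% of all genes tested. The log2 fold change was -0.79 (standard error 0.203, adjusted p = 0.00658 by DESeq2), and without Aged Sham library 13, the lowest, it was -0.60 with an adjusted p of 0.0758. edgeR gave -0.80 with an adjusted p of 0.0789.

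The Tek counts were 21632, 16531, 18636 and 15494 in Aged Bleo and 16471, 14339, 14688 and 21430 in Young Bleo. Every Aged Bleo library was above every Aged Sham library, with a log2 fold change of 1.01 (standard error 0.212, adjusted p = 0.000383 by DESeq2 and 0.0445 by edgeR). Leaving out any library kept this between 0.81 and 1.13 with the call in place. Young Bleo and Young Sham overlapped, and their log2 fold change was 0.10 (95% interval -0.26 to 0.47, adjusted p = 0.799 by DESeq2). Aged Bleo likewise overlapped Young Sham (0.21, interval -0.15 to 0.58) and Young Bleo (0.11, interval -0.27 to 0.50). Ordered by mean, Tek was highest in Aged Bleo (18073 ± 2709, SD, n = 4), then Young Bleo (16732 ± 3268, n = 4), Young Sham (15584 ± 2581, n = 5) and Aged Sham (8996 ± 2210, n = 3), and only the step to Aged Sham exceeded the spread. The difference between the aged and the young response to bleomycin was 0.90 on the log2 scale (SE 0.282), with an adjusted p of 0.153 in DESeq2 and 0.523 in edgeR, so it did not pass. It passed only without Young Bleo library 20, where it was 1.04 with an adjusted p of 0.0197.

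The markers of general capillary ECs, the cells that maintain and repair the lung's capillaries, are given beside Tek. The study itself counts Tek among the markers of these cells, and reports it as lower in aged than in young lung ECs. The summed level over 7 other markers was 911 to 991 FPKM in Young Sham and 632 to 832 in Aged Sham. It was 859 to 996 in Young Bleo and 843 to 955 in Aged Bleo. In Aged Sham against Young Sham 2 of the 7 markers were called, Aplnr (the apelin receptor) and Kit (the stem cell factor receptor), both lower. In Aged Bleo against Aged Sham Kit and Cd93 were called, both higher. None of the 7 was at 0 in any library, and their part in the Tek differences was not tested. The endothelial marker Pecam1, which encodes CD31, had a log2 fold change of -0.18 (standard error 0.199, adjusted p = 0.733) in Aged Sham against Young Sham and 0.02 (SE 0.208, adjusted p = 0.976) in Aged Bleo against Aged Sham by DESeq2. It is 1 of 10 pan-endothelial markers, of which 2, Cldn5 and Tmem100, were called lower in Aged Bleo against Aged Sham, where the median of the 10 was -0.21. In bulk libraries a smaller share of cells of a type and less RNA per cell cannot be told apart.

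Tie1 had the same order of sham groups as Tek, with smaller fold changes in Aged Sham against Young Sham and in Aged Bleo against Aged Sham, and DESeq2 called it in no comparison with its own size factors. Its normalized counts were 27710, 32878, 31681, 21704 and 29182 in Young Sham, 15574, 23998 and 23221 in Aged Sham, 28659, 34514, 25833 and 39194 in Young Bleo, and 32659, 20408, 28884 and 28029 in Aged Bleo. All pairs of groups compared overlapped. The log2 fold change was -0.45 in Aged Sham against Young Sham (95% interval -0.85 to -0.05, adjusted p = 0.253 by DESeq2), 0.16 in Young Bleo against Young Sham (interval -0.21 to 0.53) and 0.39 in Aged Bleo against Aged Sham (interval -0.03 to 0.81).

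The counts of the receptor genes were also set against each other within a library, which removes the library's scaling but not differences in its cells. The FPKM of Tek was 0.505 to 0.621 times that of Tie1 in Young Sham, 0.433 to 0.472 in Aged Sham, 0.434 to 0.5997 in Young Bleo and 0.577 to 0.845 in Aged Bleo. Aged Sham lay below Young Sham in every library, by -0.35 on the log2 count scale, and that reached the smallest p that an exact permutation test of 3 against 5 can give (two-sided p = 0.0357, adjusted over the 10 ratio tests 0.0952). Aged Bleo lay above Aged Sham in every library, by 0.63 (exact permutation p = 0.0571, again the smallest possible, adjusted 0.0952). Aged Bleo was 0.28 above Young Sham (exact permutation p = 0.0476, adjusted 0.0952) and 0.34 above Young Bleo (p = 0.0857, adjusted 0.122), and Young Bleo differed from Young Sham by -0.06 (p = 0.635, adjusted 0.705). None of the Tek to Tie1 differences passed 0.05 after adjustment, and Aged Bleo against Aged Sham could not pass at its group sizes.

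**Figure D2:**
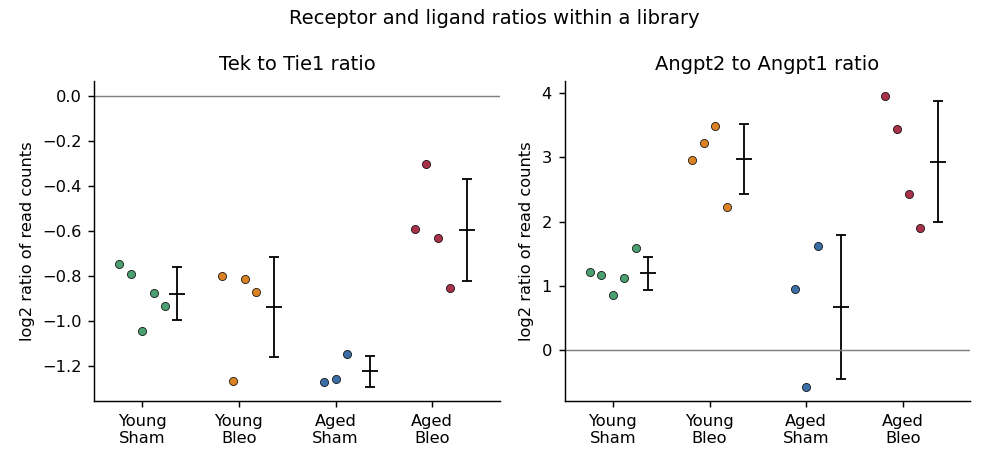
Log2 ratio of read counts within each library for Tek over Tie1 (left) and Angpt2 over Angpt1 (right), 1 point per library with the group mean and SD beside the points. Aged Sham has the lowest mean of the receptor ratio, and both Bleo groups lie above both sham groups for the ligand ratio.

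Of the ligands, Angpt1 was lower after bleomycin at both ages, each against its own sham group, with the largest fold changes of the 6 genes in these comparisons. It is on the minus strand of chromosome 15 (42424727 to 42676977, protein coding). Its normalized counts were 645, 793, 962, 685 and 572 in Young Sham and 149, 102, 70.5 and 302 in Young Bleo. All 4 Young Bleo libraries were below all 5 Young Sham libraries, with a log2 fold change of -2.23 (standard error 0.549, adjusted p = 0.00105 by DESeq2 and 0.0291 by edgeR). The call held without any 1 library, with the log2 fold change between -2.77 and -1.98.

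In aged mice Angpt1 was uneven. The counts were 777, 2501 and 959 in Aged Sham libraries 13, 14 and 15, and 99.6, 82.5, 500 and 655 in Aged Bleo libraries 1, 2, 3 and 5. The groups did not overlap, and the log2 fold change was -2.08 (standard error 0.623, adjusted p = 0.0208 by DESeq2), while edgeR gave -2.06 with an adjusted p of 0.114. Without Aged Sham library 14 it was -1.38 with an adjusted p of 0.225, without Aged Bleo library 1 -1.78 with 0.0915, and without Aged Bleo library 2 -1.76 with 0.0538. With only the libraries of both groups it was -2.08 with 0.0780. Against Young Sham, 3 of the 4 Aged Bleo libraries lay below the range and library 5 inside it (-1.13, SE 0.548, adjusted p = 0.188), and without Aged Bleo library 5 that comparison passed (-1.68, adjusted p = 0.0298). Aged Sham against Young Sham gave 0.95 (SE 0.595, adjusted p = 0.476), and 0.25 without library 14.

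Marker genes of other cells stood beside the Angpt1 values. Aged Sham library 14 had by far the highest sum of 9 platelet and megakaryocyte markers, 3654 FPKM, where the other 2 Aged Sham libraries had 959 and 714, Young Sham 312 to 552, Young Bleo 120 to 296 and Aged Bleo 71.1 to 553. Of these 9 markers 5 were called higher in Aged Sham against Young Sham by DESeq2, and 0 by edgeR or voom. In Aged Bleo against Aged Sham 7 were called lower by DESeq2, while edgeR called 2 and voom 1. None of the 9 was at 0 in any library. The platelet sum was 71.1, 220, 454 and 553 FPKM in Aged Bleo libraries 1, 2, 3 and 5. In Young Bleo it was 224, 120, 238 and 296 in libraries 17, 18, 19 and 20. Aerocytes are the large capillary ECs that line the gas exchange surface. Their markers were higher in Bleo libraries 3, 5 and 20, which had the most Angpt1 of their groups, than in the other Bleo libraries. The platelet sums were also the highest of their groups there, as were the sums of 10 pan-endothelial markers (3414, 2958 and 3093 FPKM). In Aged Sham, library 14 did not follow the aerocyte pattern. The aerocyte sum over 8 genes was 221 and 388 FPKM in Aged Bleo libraries 1 and 2, the pair with low Angpt1. It was 1454 and 1158 in Aged Bleo libraries 3 and 5. In Young Bleo it was 240, 318 and 441 in libraries 17, 18 and 19 and 1066 in library 20, which also had the most Angpt1, while Young Sham had 1748 to 2213. In Aged Sham it was 1771, 1279 and 2040 in libraries 13, 14 and 15, so that library 14, with the most Angpt1, had the lowest sum. All 8 aerocyte markers were called lower in Young Bleo against Young Sham. DESeq2 called 0 of 8 in Aged Bleo against Aged Sham (median log2 fold change -1.13), with 4 at an unadjusted p under 0.05 and 0 called by edgeR or voom. None of the 8 was at 0 in any library. The sum of 12 pericyte and smooth muscle markers was 59.7 to 122 FPKM in Young Sham, 21.6 to 51.8 in Young Bleo, 31.9 to 56.6 in Aged Sham and 14.2 to 25.9 in Aged Bleo, with 6 of 12 called lower in Young Bleo against Young Sham, 2 of 12 in Aged Bleo against Aged Sham and none at 0. The sum of 10 fibroblast markers was 18.7 to 39.2 FPKM in Young Sham, 33.8 to 40.0 in Young Bleo, 19.3 to 42.7 in Aged Sham and 11.9 to 20.8 in Aged Bleo. Of these 10, Dcn and Tcf21 were called lower in Aged Bleo against Aged Sham, Tcf21 lower and Pi16 higher in Young Bleo against Young Sham, and none was at 0. The part of these cells in the Angpt1 differences was not tested.

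**Figure D3:**
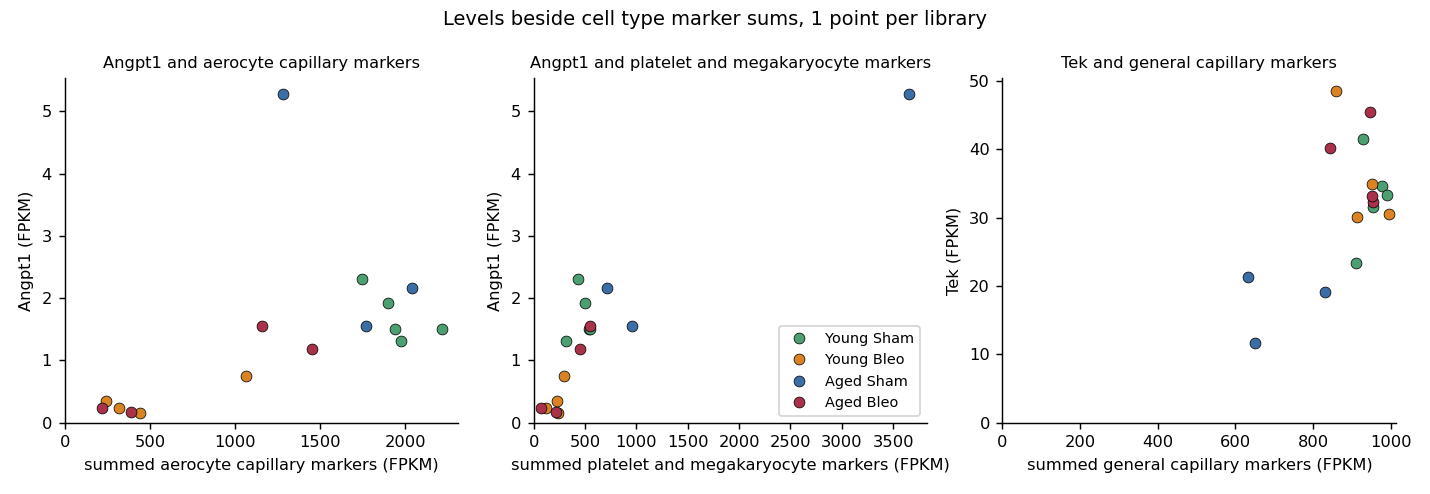
FPKM of Angpt1 against the summed FPKM of aerocyte markers (left) and of platelet and megakaryocyte markers (middle), and of Tek against that of general capillary markers (right), 1 point per library coloured by group. Aged Sham library 14 is the point with the highest Angpt1 and platelet sum, and the 3 Aged Sham libraries have the lowest Tek and general capillary sums.

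Angpt1 also shares 737 exon bases with Gm17473, a gene on the opposite strand that had 5 to 138 raw counts per library, at most 16.3% of the Angpt1 counts. The sources used here do not say whether counting used the strand, so reads of the shared bases cannot be assigned with certainty.

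Angpt2, on the minus strand of chromosome 8 (18690263 to 18741562, protein coding) and within Mcph1, with which it shares 0 exon bases, was called in no comparison. Its normalized counts were 1501, 1789, 1751, 1502 and 1719 in Young Sham and 1161, 958, 795 and 1422 in Young Bleo. Every Young Bleo library lay below every Young Sham library, but the log2 fold change of -0.61 (95% interval -1.18 to -0.04) had an adjusted p of 0.148 in DESeq2 and 0.197 in edgeR. When DESeq2 was fitted to the 9 libraries of these groups alone, without the more variable aged groups, the same comparison passed (-0.60, adjusted p = 0.00696). The aged groups spread widely, with 1507, 1688 and 2953 in Aged Sham and 1552, 896, 2706 and 2435 in Aged Bleo, and they overlapped (-0.11, interval -0.76 to 0.53). Aged Bleo against Young Bleo gave 0.81 (interval 0.21 to 1.41, adjusted p = 0.213 by DESeq2). That comparison passed only without Aged Bleo library 2 (1.04, adjusted p = 0.0168). The aerocyte sum given above was also lower in every Young Bleo library than in every Young Sham library. It was highest in the library with the most Angpt2 in Aged Bleo, Young Bleo and Aged Sham, but not in Young Sham. The part of aerocytes in the Angpt2 differences was not tested.

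The ligands were also set against each other within a library. The FPKM of Angpt2 was 2.10 to 3.47 times that of Angpt1 in Young Sham and 5.43 to 13.0 times in Young Bleo, and it was 0.778, 2.24 and 3.55 times in Aged Sham and 4.29 to 18.0 times in Aged Bleo. Young Bleo exceeded Young Sham in every library, by 1.78 on the log2 count scale (exact permutation p = 0.0159, the smallest that 4 against 5 allows, adjusted over the 10 ratio tests 0.0794). Aged Bleo exceeded Young Sham by 1.74 (exact permutation p = 0.0159, adjusted 0.0794) and Aged Sham by 2.26 (p = 0.0571, the smallest that 4 against 3 allows, adjusted 0.0952), again without overlap. Aged Bleo differed from Young Bleo by -0.05 (exact permutation p = 0.943, adjusted 0.943) and Aged Sham from Young Sham by -0.52 (p = 0.50, adjusted 0.625). No ligand ratio passed 0.05 after adjustment, and Aged Bleo against Aged Sham could not pass at its group sizes.

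Ptprb, whose product dephosphorylates TIE2, was called higher in aged ECs after bleomycin. It lies on the plus strand of chromosome 10 (116301374 to 116389538, protein coding). The normalized counts were 18905, 21305, 17908, 15211 and 18039 in Young Sham and 25411, 21576, 25589 and 25301 in Young Bleo. The groups did not overlap and the adjusted p was 0.0318 by DESeq2, but the log2 fold change of 0.42 (standard error 0.147) was under the 0.5 needed for a call. In Aged Sham the counts were 14022, 18346 and 12771, and in Aged Bleo 28959, 26066, 20558 and 20865. All 4 Aged Bleo libraries were above all 3 Aged Sham libraries, with a log2 fold change of 0.68 (standard error 0.168, adjusted p = 0.00311 by DESeq2 and 0.0545 by edgeR), and the DESeq2 call held without any 1 library (0.58 to 0.85) but not when only the libraries of both groups were fitted (0.68, adjusted p = 0.0629). Aged Sham against Young Sham gave -0.28 (95% interval -0.60 to 0.03, adjusted p = 0.421), and the aged and young responses differed by 0.26 (interval -0.18 to 0.70, adjusted p = 0.810).

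Foxo1 had fold changes of the same sign as Ptprb after bleomycin, smaller and not called. Its normalized counts were 5760, 5838, 5274, 4989 and 5362 in Young Sham, 6068, 7350, 6751 and 6806 in Young Bleo, 3937, 5258 and 4943 in Aged Sham, and 7288, 6825, 5473 and 5633 in Aged Bleo. Each Bleo group lay above its own sham group in every library. The log2 fold change was 0.42 (standard error 0.138, adjusted p = 0.0422 by DESeq2, 0.133 by edgeR) in Aged Bleo against Aged Sham and 0.31 (SE 0.121, adjusted p = 0.0626 by DESeq2) in Young Bleo against Young Sham, so the first passed on its p but not on its size, and it was called without Aged Sham library 14 (0.50, adjusted p = 0.0219). An antisense gene, Gm20402, shares 674 exon bases with Foxo1 and had 224 to 1208 raw counts, up to 17.4% of the Foxo1 counts of a library.

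Arterial and macrophage marker sums were higher in both Bleo groups, as were Ptprb and Foxo1, each group against its own sham group. The sum of 6 arterial EC markers was 126 to 210 FPKM in Young Sham, 255 to 407 in Young Bleo, 94.0 to 149 in Aged Sham and 185 to 429 in Aged Bleo, so each Bleo group lay above its own sham group without overlap. In Aged Bleo it was 429 and 346 in libraries 1 and 2, which had the higher Ptprb and Foxo1, and 185 and 212 in libraries 3 and 5. In Young Bleo library 18, with the lowest Ptprb, had the highest arterial sum. Of the 6 markers 3 were called higher in Aged Bleo against Aged Sham, the gap junction genes Gja4 and Gja5 and Sema3g, and the same 3 were called higher in Young Bleo against Young Sham, where the Notch ligand gene Dll4 was called lower. None of the 6 was at 0 in any library. The sum of 8 macrophage markers was 22.5 to 39.3 FPKM in Young Sham, 146 to 423 in Young Bleo, 49.4 to 161 in Aged Sham and 190 to 1345 in Aged Bleo, again with no overlap between a Bleo group and its sham group. In Aged Bleo libraries 1, 2, 3 and 5 it was 1345, 765, 341 and 190. In Young Bleo libraries 17, 18, 19 and 20 it was 380, 423, 258 and 146. Library 18, with the highest of these, had the lowest Ptprb and the highest Foxo1 of Young Bleo. At each age 4 of the 8 were called higher after bleomycin, among them Cd68 and Lyz2, although the sort removed cells with CD45. Each sham library had 1 to 4 of the 8 at 0, always among Mrc1, Marco, Itgax, Mmp12 and Siglecf, and Marco and Siglecf were at 0 in Young Bleo library 19. The sum of 7 lymphatic EC markers was also higher in Young Bleo (681 to 1529 FPKM) than in Young Sham (265 to 364), with 4 of 7 called and none at 0, while the aged groups overlapped. The sum of 6 venous EC markers was 47.6 to 69.9 FPKM in Young Sham, 65.0 to 109 in Young Bleo, 62.5 to 134 in Aged Sham and 97.2 to 113 in Aged Bleo, so each Bleo group overlapped its own sham group. Of the 6 venous markers 3 were called higher in Young Bleo against Young Sham (Slc6a2, Ackr1 and Selp), 1 in Aged Bleo against Aged Sham (Ackr1), 3 in Aged Sham against Young Sham and 4 in Aged Bleo against Young Sham, and none was at 0 in any library. The sum of 5 mesothelial markers was low but higher without overlap in Young Bleo (6.29 to 17.8 FPKM) than in Young Sham (0.629 to 2.57), with 4 of 5 called, and it overlapped between Aged Bleo (1.26 to 7.79) and Aged Sham (4.56 to 14.7). Wt1 was at 0 in every Young Sham library and in 3 of 4 Aged Bleo libraries, and Msln or Lrrn4 in 2 Young Sham libraries. The sums of 7 epithelial markers and of 5 lymphocyte and neutrophil markers overlapped between each Bleo group and its sham group, although Ptprc, which encodes CD45, was called higher in Young Bleo against Young Sham. The part of these cells in the Ptprb and Foxo1 differences was not tested.

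In Young Bleo against Young Sham 4 of the 6 genes had no overlap between the groups (Angpt1, Angpt2, Ptprb and Foxo1), beside 14.8% of all genes tested. In Aged Bleo against Aged Sham it was also 4 (Tek, Angpt1, Ptprb and Foxo1), beside 12.1%. In Aged Bleo against Young Sham it was 0, beside 10.8%, and in Aged Bleo against Young Bleo 0, beside 5.08%.

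The fold changes depended on how the libraries were scaled. The sum of 10 pan-endothelial markers was 3903 to 4649 FPKM in Young Sham, 3521 to 3899 in Aged Sham, 2352 to 3093 in Young Bleo and 2201 to 3414 in Aged Bleo, with Kdr, Cldn5, Ramp2 and Tmem100 called lower in both Bleo groups against Young Sham and Emcn called higher in Young Bleo. Scaling to those genes moved the median of all genes to 0.51 in Young Bleo against Young Sham, 0.46 in Aged Bleo against Young Sham, 0.24 in Aged Bleo against Aged Sham and 0.21 in Aged Sham against Young Sham. On that scale Ptprb was 0.91, Foxo1 0.80, Tie1 0.64 and Tek 0.58 in Young Bleo against Young Sham, and Angpt1 was -1.79, all of them called, while Angpt2 was -0.13 and not called (adjusted p = 0.737). The values of Tek and Tie1 there are close to that of the median gene. The call of lower Tek in Aged Sham held on that scale (-0.63, adjusted p = 0.0492).

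**Figure D4:**
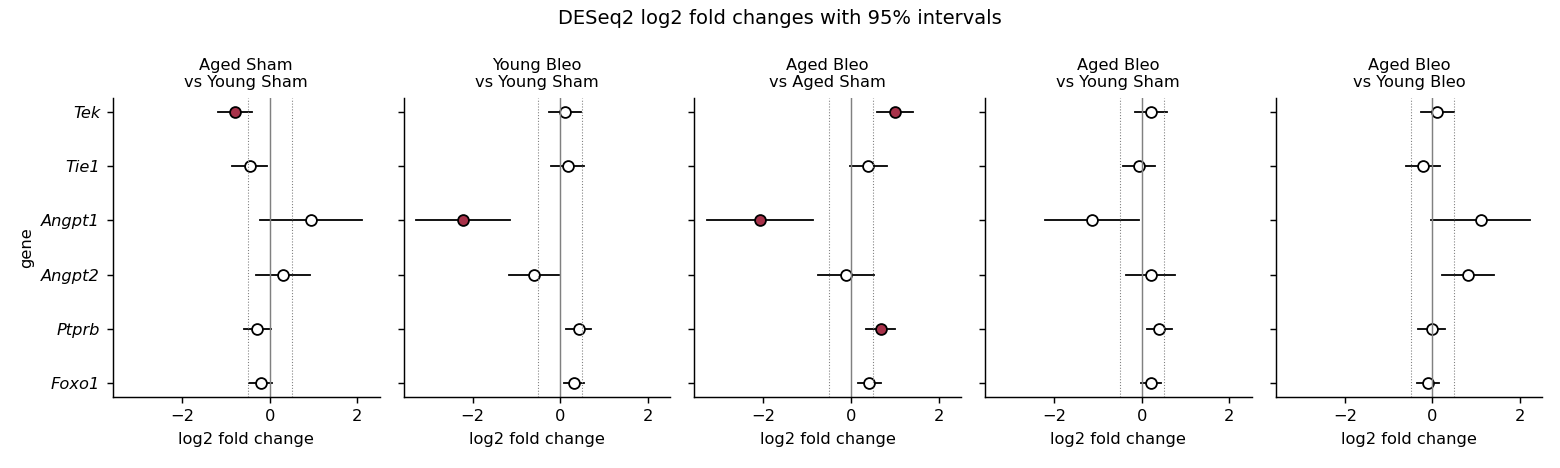
DESeq2 log2 fold changes of the 6 genes in the 5 pairwise comparisons, with 95% intervals as lines, filled circles for called genes and dotted lines at the fold threshold. The intervals are widest for Angpt1, the least abundant gene, and no gene is filled in the 2 panels on the right.

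Genes around the receptors were described by lists. Of 10 other ligands and partners of the Tie receptors, 9 were tested. In Young Bleo against Young Sham 1 was called higher and 1 lower, which is 22.2% beside 13.9% of all genes tested, and their median log2 fold change was -0.25, beside 0.01 for all genes. Itga5, the alpha 5 integrin subunit that binds fibronectin and associates with TIE2, was the gene called higher, with 10.9 to 14.3 FPKM in Young Bleo, 4.37 to 7.43 in Young Sham and a log2 fold change of 0.94 (standard error 0.230, adjusted p = 0.000892 by DESeq2). It was also the only gene of the 9 called in Aged Bleo against Aged Sham (11.1%, beside 5.83% of all genes), with 7.50 to 14.0 FPKM against 2.28 to 5.32 and a log2 fold change of 1.20 (standard error 0.262, adjusted p = 0.000643). Itgb5, the beta 5 integrin subunit, was the gene called lower in Young Bleo, by -1.97 (SE 0.645, adjusted p = 0.0193 by DESeq2, 0.0572 by edgeR), a call lost without Young Bleo library 17, 18 or 19 (adjusted p up to 0.0871). In Aged Sham against Young Sham DESeq2 called 0 of 9, with 4 at an unadjusted p under 0.05 and 0 called by edgeR or voom. Angpt4, the third angiopoietin gene, stayed at or below 0.321 FPKM in every library.

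Among 22 adaptor and kinase genes downstream of TIE2, 2 were called higher and 2 lower in Young Bleo against Young Sham (median -0.02) and 1 higher in Aged Bleo against Aged Sham (median -0.04, all genes 0.01). These are 18.2% of the list beside 13.9% of all genes and 4.55% beside 5.83%, both near the background. Nos3, the endothelial nitric oxide synthase that AKT activates, was called in both Bleo groups. Its level was 4.33 to 8.07 FPKM in Young Sham, 17.3 to 21.2 in Young Bleo, 3.99 to 5.95 in Aged Sham and 9.19 to 19.0 in Aged Bleo. The log2 fold change was 1.57 (standard error 0.218, adjusted p = 3.8e-10 by DESeq2) in young and 1.24 (SE 0.249, adjusted p = 0.00018) in aged mice, each against its own sham group. Pik3r1, the regulatory subunit of PI3 kinase, was higher by 0.85 (SE 0.240, adjusted p = 0.00500) in Young Bleo against Young Sham, while the catalytic subunit gene Pik3cb was lower by -0.90 (SE 0.288, adjusted p = 0.0163 by DESeq2, 0.0564 by edgeR), a call lost without Young Bleo library 17, 18 or 19 or Young Sham library 23 (adjusted p up to 0.0840). Grb14, an adaptor that binds activated TIE2, had 7.80 to 8.98 FPKM in Young Sham and 0.711 to 4.42 in Young Bleo, with a log2 fold change of -2.24 (standard error 0.504, adjusted p = 0.000268).

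Among 22 FOXO family and FOXO1 target genes, 3 were called higher and 3 lower in Young Bleo against Young Sham, which is 27.3% beside 13.9% of all genes tested, and the median was -0.00333. Txnip, a thioredoxin inhibitor, fell from 141 to 222 FPKM in Young Sham to 86.9 to 140 in Young Bleo, with a log2 fold change of -1.03 (standard error 0.246, adjusted p = 0.000689 by DESeq2). Foxo3 itself was lower after bleomycin at both ages, by -0.77 (SE 0.187, adjusted p = 0.000827) in young and -0.88 (SE 0.210, adjusted p = 0.00192 by DESeq2, 0.0536 by edgeR) in aged mice, each against its own sham group. Mxi1, a MYC antagonist, and Cited2, a transcriptional co-regulator, were higher in Young Bleo against Young Sham by 1.05 (SE 0.276, adjusted p = 0.00241) and 0.65 (SE 0.199, adjusted p = 0.0113), the latter lost without Young Bleo library 17 or 19 (adjusted p up to 0.0556). Ccng2 was also called higher there and Klf2 lower. In Aged Bleo against Aged Sham 2 were called higher, the scarce Foxo6 (1.85, SE 0.566, adjusted p = 0.0252 by DESeq2) and Pik3ip1, and 1 lower, Foxo3, which is 13.6% beside 5.83% of all genes, while edgeR called none of these 22. The Foxo6 call was lost without Aged Bleo library 1 or 2 or Aged Sham library 13 or 15 (adjusted p up to 0.12), and the young Foxo3 fold change was -0.27 and not called on the pan-endothelial scale. In Aged Sham against Young Sham DESeq2 called 0 of 22, with 6 at an unadjusted p under 0.05 and 0 by edgeR or voom.

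Of 7 angiopoietin-like genes 6 were found in the table and tested, and 1 was called in 1 comparison, Angptl7 in Young Bleo against Young Sham (16.7%, beside 13.9% of all genes), at levels of at most 0.353 FPKM. DESeq2 called 0 of 6 in Aged Sham against Young Sham and 0 of 6 in Aged Bleo against Aged Sham, with 0 at an unadjusted p under 0.05 and 0 by edgeR or voom. The most abundant of them, Angptl6, had 2.22 to 2.73 FPKM in Young Sham.

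Over the 16 libraries the levels of the members were compared as log2(normalized count + 1), as a description of libraries that share their groups, their scaling and their cell mixture. Tek was most like Tie1 (Pearson r = 0.81), Ptprb (0.76) and Foxo1 (0.76), and Ptprb and Foxo1 were the closest pair (0.87). The ligands were like each other (0.72), and Angpt1 ran opposite to Ptprb (-0.74) and Foxo1 (-0.77). Among 13773 genes whose normalized count averaged 50 or more, the genes most like Tek were Rbm5 (0.93), Kit (0.92) and Zfp282 (0.92). Those most like Tie1 were Actn4 (0.95), Ralgds (0.95) and Arhgef1 (0.94). For Angpt1 they were Mylk (0.96), which encodes myosin light chain kinase, Slc6a4 (0.96), the serotonin transporter gene, and Acadm (0.95). For Angpt2 they were Scrn3 (0.94), Cobll1 (0.92) and Ezr (0.90), for Ptprb Sema3g (0.93), an arterial semaphorin gene, Pcsk5 (0.93) and Rai14 (0.92), and for Foxo1 Unc119b (0.95), Nos2 (0.95) and Fzd6 (0.94).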

How the data were processed

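RNA-seq was analysed from a deposited table for 16 libraries of sorted lung ECs. The authors aligned reads with STAR (version 2.5.2b in the submitters' processing notes) to mm10 and made gene counts with featureCounts of Subread, and the deposited raw counts are whole numbers. The authors also deposited FPKM values, scaled by gene length and library total. The annotation release and strand setting are not given in the sources used here, and the labels and the study's methods name different library kits. No libraries were merged, since the least different replicate pair had a chi-square of 35.1 per gene, which sets it against counting error only.

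Counts were fitted with DESeq2 1.42.0 (R 4.3.3) in a single model of 4 groups, with Wald tests and Benjamini-Hochberg adjustment, as the study's methods name that tool. A call needed an adjusted p of at most 0.05 and a log2 fold change of at least 0.5 in size. The alternatives were edgeR 4.0.16 (quasi-likelihood), limma 3.58.1 (voom, and trend on log2(FPKM + 0.1) or log2(FPKM + 1)), TMM size factors, scaling to 10 pan-endothelial genes, a mean raw count of at least 10, the libraries of both groups only, and each library left out. Ratios used log2(count + 0.5), or + 1 as an alternative, with two-sided exact permutation tests. The DESeq2 and edgeR fits were also run on simulated counts with planted changes, and the outcome is not given here. The members, lists and rules were chosen with earlier results of these data known. Named list genes are the called ones whose normalized count averaged 50 or more, up to the 5 largest per list, and Ccng2, Klf2, Pik3ip1, Angptl7, Angpt4 and Angptl6 were named after their values were seen. The comparison of the adaptor and kinase list with age is not reported here. Likeness is described by the 3 most correlated genes per member. Intervals are 95%.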

Additional observations from a re-analysis of the deposited data

Results flagged for a closer look

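In groups of 4 or 5 libraries, a library was singled out when its gap to the nearest other library took an unusually large share of the group's range (Dixon's test at the 95% level, which chance passes in about 1 of 20 groups). Among 24 such groups of member counts and ratios, 2 contained such a library, and both times it was Young Bleo library 18. Its Ptprb count, 21576, was below the 25301 to 25589 of the other 3 Young Bleo libraries, with a gap of 0.928 of the range. Its Tek to Tie1 ratio was the lowest of Young Bleo, 0.434 in FPKM where the others had 0.571 to 0.5997, with a gap of 0.846 of the range. Without it the Young Bleo against Young Sham difference of that ratio turned from -0.059 to 0.051 on the log2 scale.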

How the results depend on the processing

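No paired analysis was possible because the library numbers do not repeat between groups. Over 282 comparisons of a member's fold change with an alternative setting, 254 kept direction and side of the threshold, 12 lost the call, 10 gained it and 6 reversed. The count of members called in Aged Sham against Young Sham was 1, and 0 with edgeR, voom or limma-trend at either pseudocount (0.1 or 1). In Young Bleo against Young Sham it was 1, but 5 on the pan-endothelial scale and 2 with the libraries of both groups only. In Aged Bleo against Young Sham it was 0, but 3 on the pan-endothelial scale. In Aged Bleo against Aged Sham it was 3, but 1 with edgeR, voom or the libraries of both groups only, 2 with limma-trend at either pseudocount and 5 on the pan-endothelial scale. TMM size factors and the minimum mean count changed no member's call. The median gene moves on the pan-endothelial scale, as given above, and the cause of the other changes was not tested.

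None of the fold changes that reversed was called. On the pan-endothelial scale they were Tie1 in Aged Bleo against Young Sham (0.36), Angpt2 in Aged Bleo against Aged Sham (0.12), and the aged minus young responses of Angpt1 (-0.10) and Foxo1 (-0.12). The last difference for Angpt1, 0.15 in DESeq2, was also -0.13 in voom and -0.15 in limma-trend with a pseudocount of 1.

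With 1 library left out at a time, 553 of 576 member fold changes kept direction and side of the threshold, 4 lost the call, 4 gained it and 15 reversed. The count of members called ranged from 0 to 1 in Aged Sham against Young Sham, Aged Bleo against Young Sham, Aged Bleo against Young Bleo and the contrast of the responses, was 1 throughout in Young Bleo against Young Sham and ranged from 2 to 3 in Aged Bleo against Aged Sham. Those that reversed ranged from -0.037 to 0.18 for Tek in Young Bleo against Young Sham, -0.15 to 0.061 for Tie1 in Aged Bleo against Young Sham, -0.049 to 0.49 for Angpt2 in Aged Sham against Young Sham, -0.022 to 0.43 for Angpt2 in Aged Bleo against Young Sham, -0.33 to 0.25 for Angpt2 in Aged Bleo against Aged Sham, and -0.12 to 0.048 for Ptprb in Aged Bleo against Young Bleo. The aged minus young responses ranged from -0.41 to 0.85 for Angpt1 and -0.0065 to 0.20 for Foxo1. The Tek to Tie1 ratio of Young Bleo against Young Sham ranged from -0.10 to 0.051, and the Angpt2 to Angpt1 ratio from -1.001 to 0.094 in Aged Sham against Young Sham and from -0.39 to 0.30 in Aged Bleo against Young Bleo.

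Of the 6 members, Angpt1 had the fewest reads, as few as 64 in a library.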
